A study of Mus musculus with 16 samples.

Results

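The comparison was between wild-type (WT) mouse livers after oxaliplatin dosing at circadian time 16 (CT16) and at circadian time 8 (CT8). Its members were the 8 WT libraries, 4 per dosing time, chosen by their column names in the count table, out of 16 libraries in all. The other 8 libraries carry the label CryDKO, for mice without Cry1 and Cry2 (Cry1-/- Cry2-/-), and entered the model as 2 further groups. All mice were C57BL/6J males of 12 to 16 weeks, entrained to light and dark for 3 weeks, placed in constant darkness 3 days before the drug and injected intraperitoneally with oxaliplatin at 12 mg/kg on 3 consecutive days. The series text speaks of a single dose elsewhere. Every group had the drug, and no untreated group was analysed here. When the livers were taken is not stated in the sources used here, so an effect of the dosing time and the clock phase of the liver at collection cannot be told apart. Nothing in the labels says whether the libraries within a group are different animals, and p values therefore measure the spread among libraries, some of which may be technical.

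The liver clock is a feedback loop in which BMAL1 (Arntl) and CLOCK switch on Per and Cry genes through E-boxes, and the PER and CRY proteins then switch that activity off. A linked loop uses REV-ERB alpha (Nr1d1) and ROR proteins to set Arntl, and DBP and NFIL3 act in opposite directions on D-boxes of output genes. Hepatocytes also make most plasma proteins, which enter the endoplasmic reticulum (ER) through a translocon, are glycosylated and folded there and leave through the Golgi. Oxaliplatin forms platinum crosslinks in DNA, which are removed mainly by nucleotide excision repair.

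The results below turn on a few clock and ER genes. For some of them, the 250 bases before the start site are shown with elements that clock and ER stress factors are known to read. The genes shown were picked among those whose window held such an element. Most matched genes of the lists held none, as counted below. Sequences are from RefSeq with build GRCm38.p6, which is not the build of the counts. They run 5′ to 3′ on the strand of the gene, with the matched element in capitals.
Cry1, chr10:85185055-85185304, minus strand, E-box: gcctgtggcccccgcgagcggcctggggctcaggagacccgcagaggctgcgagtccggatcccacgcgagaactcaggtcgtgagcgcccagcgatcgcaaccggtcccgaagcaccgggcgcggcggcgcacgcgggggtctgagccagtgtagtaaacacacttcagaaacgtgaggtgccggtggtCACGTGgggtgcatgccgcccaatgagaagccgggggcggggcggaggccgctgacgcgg
Bhlhe41, chr6:145865421-145865670, minus strand, E-box: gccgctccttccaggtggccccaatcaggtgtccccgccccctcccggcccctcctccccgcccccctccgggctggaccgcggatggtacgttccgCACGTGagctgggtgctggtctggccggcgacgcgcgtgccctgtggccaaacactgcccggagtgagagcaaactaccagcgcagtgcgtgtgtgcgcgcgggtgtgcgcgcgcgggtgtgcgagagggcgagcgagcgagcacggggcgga
Per3, chr4:151044666-151044915, minus strand, 2 D-boxes: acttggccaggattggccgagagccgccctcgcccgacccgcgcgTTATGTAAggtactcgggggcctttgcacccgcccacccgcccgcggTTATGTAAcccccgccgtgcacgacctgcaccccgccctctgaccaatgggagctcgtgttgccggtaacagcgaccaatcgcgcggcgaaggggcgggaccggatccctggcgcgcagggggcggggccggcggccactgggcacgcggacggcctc
Pdia6, chr12:17266339-17266588, plus strand, ER stress element: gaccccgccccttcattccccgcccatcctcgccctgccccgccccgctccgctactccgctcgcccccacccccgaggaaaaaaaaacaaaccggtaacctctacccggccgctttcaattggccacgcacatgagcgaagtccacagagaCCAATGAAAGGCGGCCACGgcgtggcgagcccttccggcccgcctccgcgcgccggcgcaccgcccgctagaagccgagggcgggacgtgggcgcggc
Hspa5, chr2:34771840-34772089, plus strand, ER stress element: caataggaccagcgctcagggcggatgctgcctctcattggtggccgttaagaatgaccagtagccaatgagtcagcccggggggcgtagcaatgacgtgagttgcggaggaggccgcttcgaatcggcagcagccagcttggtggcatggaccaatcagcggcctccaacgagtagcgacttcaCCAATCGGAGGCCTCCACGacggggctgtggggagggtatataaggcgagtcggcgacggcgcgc

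The search used CACGTG for the E-box, TTATGTAA for the D-box and CCAAT, 9 bases of any kind and CCACG for the ER stress element, on both strands. No overlap between the 3 motifs was scored. In windows of the same length, 6.02% of 32851 promoters held the E-box, 0.819% the D-box and 0.113% the ER stress element. Of genes in the lists below, the E-box was found in 4 of 10 matched clock repressor genes, and the D-box in 1, Per3. Of 17 matched clock output genes 3 held the E-box and 0 the D-box, and of 5 matched activator genes 0 held either. Among 22 matched ER chaperone and folding genes, 8 held the ER stress element, and 0 of 22 matched ER import genes and 0 of 23 matched ER to Golgi transport genes did. A match describes the letters in the window and not a bound site. Per2 was not among the matched genes.

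Library totals were 21083769 to 26512390 reads at CT8 and 23866799 to 29934138 at CT16. Libraries are named by the running number of their column, 1 to 4 at CT8 and 5 to 8 at CT16, which is not a replicate number. Levels are in CPM, counts per 1000000 reads after TMM scaling (trimmed mean of M values). Library 8, labelled CT16, stood with the CT8 libraries in overall composition. Its 100 most abundant genes took 38.5% of the reads, against 35.7 to 39.3% at CT8 and 43.4 to 45.7% in libraries 5 to 7. It had reads in 19824 genes, against 19432 to 20432 at CT8 and 18098 to 18814 in libraries 5 to 7, although each of the latter held more reads than library 8. Its Pearson correlation over genes was 0.989 to 0.991 with the CT8 libraries and 0.979 to 0.984 with libraries 5 to 7. The hepatocyte markers summed to 57686 to 70469.8 CPM in the CT8 libraries, 90669 to 108656 in libraries 5 to 7 and 62014 in library 8, so every library carried them at high levels. Each result is therefore given with all libraries and without library 8, which was singled out from its values and not from its label.

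With all 8 WT libraries, 367 of 14484 genes tested, or 2.53%, passed an adjusted p of 0.05 in edgeR's quasi-likelihood test (Benjamini-Hochberg adjustment). Of these, 179 were higher at CT16 (1.24%) and 188 lower (1.30%). Without library 8 the count was 3567, or 24.6%, with 1859 higher (12.8%) and 1708 lower (11.8%). All 367 genes were among the 3567 and kept their direction. The values of the 2 groups did not overlap in 1830 genes (12.6%) with all libraries and in 5925 (40.9%) without library 8. The count with all libraries was 79, 4, 91 and 0 without CT8 libraries 1, 2, 3 and 4, and 0, 1 and 1 without CT16 libraries 5, 6 and 7. It was also 569, 237, 165 and 684 without the libraries 9, 11, 13 and 14 labelled CryDKO, which share the estimate of the spread. Where it was 0, 3084 genes (without library 4) and 2671 (without library 5) had an unadjusted p under 0.05. So 0 of the 367 calls survived every omission, and each call with all libraries named below, Ppib included, was lost without library 4 or 5. Of the 3567 calls without library 8, 1205 (33.8%) were kept when each of the 15 other libraries was also left out. That count was 1965, 2245, 1808 and 1985 without libraries 2, 4, 5 and 6 as well.

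Direction depended on scaling. With library size alone in place of TMM, 18 genes were higher and 351 lower with all libraries, and 216 higher and 4345 lower without library 8. The median log2 change of all genes then moved from -0.04 to -0.29, and without library 8 from -0.02 to -0.40. Changes below are relative to the TMM scaling.

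A few clock genes separated the dosing times in all 8 libraries, and most of the clock lists, counted below, did not pass. Nr1d1, Bhlhe41 and Dbp were higher at CT16, and Per2 and Cry1 were lower. Nr1d1, the REV-ERB alpha repressor of Arntl, was at 17.9, 43.7, 26.6 and 25.5 CPM in libraries 1 to 4 and at 77.6, 85.6, 60.2 and 61.2 CPM in libraries 5 to 8. The lowest CT16 value lay above the highest CT8 value, and library 8 fell among the CT16 libraries. The log2 change was 1.32 ± 0.29 (SE), with adjusted p = 0.039 by edgeR, and 1.43 ± 0.31 without library 8. Bhlhe41, which encodes the E-box repressor DEC2, was at 2.24, 3.31, 2.77 and 2.36 CPM at CT8 and at 8.62, 7.05, 6.87 and 6.93 CPM at CT16, the largest fold change among the clock genes that passed (2.75-fold with all libraries, adjusted p = 0.0201). Library 5 was the highest and the other CT16 libraries, library 8 included, lay close together. Dbp, the D-box activator, had 52.5, 96.2, 76.0 and 74.1 CPM at CT8 and 165, 158, 140.4 and 138 CPM at CT16 (log2 change 1.01 ± 0.18, adjusted p = 0.0201). No CT8 library reached the lowest CT16 library.

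The clock genes that were lower at CT16 showed the same clean split. Per2, a subunit of the repressor complex, was at 103, 104, 78.3 and 90.5 CPM in libraries 1 to 4 and at 42.7, 26.0, 41.9 and 57.1 CPM in libraries 5 to 8. Library 8 had the highest CT16 value and still lay under every CT8 library, and the log2 change was -1.16 ± 0.22 (edgeR adjusted p = 0.0245). Cry1, the partner of PER2 whose E-box is shown above, was at 15.9, 9.22, 9.39 and 14.1 CPM at CT8 and 7.38, 5.14, 5.33 and 6.13 CPM at CT16, a log2 change of -1.02 ± 0.18 (adjusted p = 0.0201). The groups did not overlap, and library 8 lay between the other CT16 libraries. Without library 8 these 5 calls held in each of the 15 fits that left out 1 more library.

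**Figure D1:**
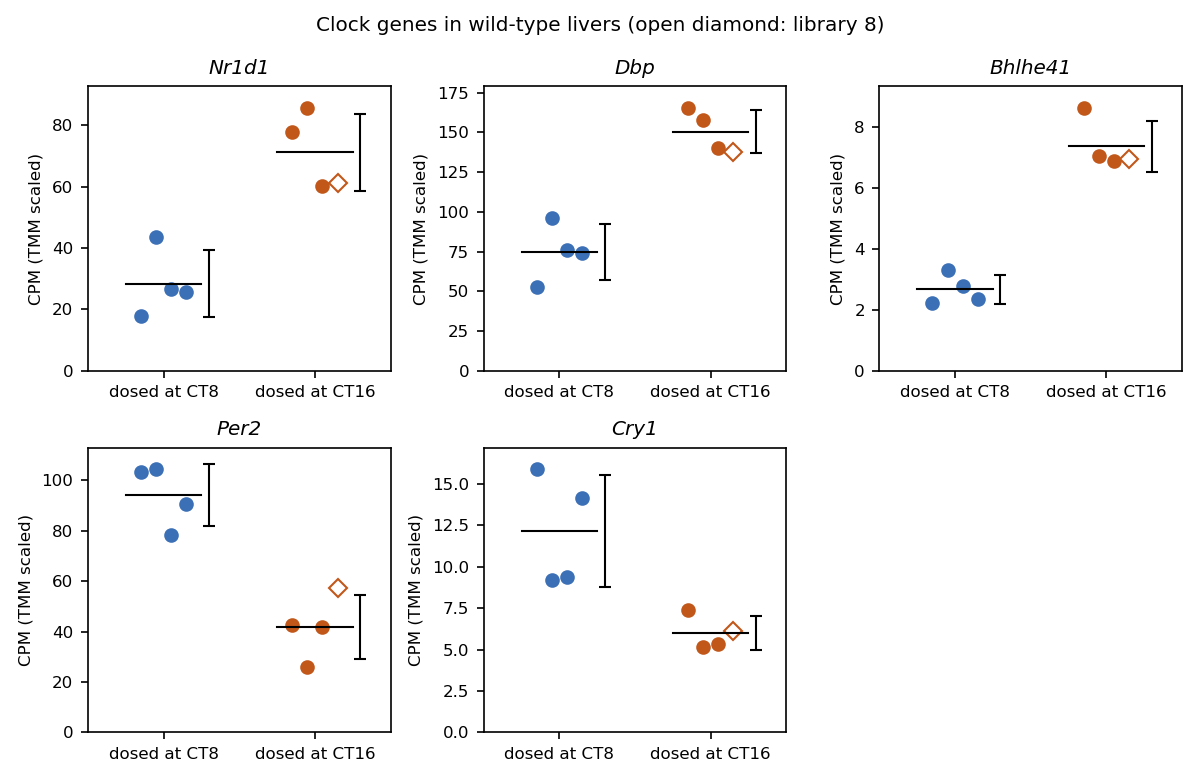
Levels of 5 clock genes in CPM (TMM scaled) in the 4 libraries dosed at CT8 and the 4 dosed at CT16. Each point is a library, the line is the mean of 4, the bar is the SD, and the open diamond is library 8. In each panel the 2 groups do not overlap. The diamond lies within or close to the other CT16 points in Nr1d1, Dbp, Bhlhe41 and Cry1, and between them and the CT8 points in Per2. All 5 genes were called with library 8 in the fit.

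Arntl, the gene of BMAL1, was low, at 1.67 to 3.53 CPM at CT8 and 1.90, 1.55, 0.955 and 0.941 CPM in libraries 5 to 8, and did not pass (log2 change -0.78 ± 0.31, edgeR adjusted p = 0.121). Nfil3, the repressor that opposes DBP, was at 24.6, 34.2, 30.4 and 27.8 CPM at CT8 and 31.6, 18.2, 18.9 and 18.7 CPM at CT16, where library 5 alone lay within the CT8 range. Of the 14 repressor genes, 2 rose and 2 fell with all libraries, and 2 rose and 4 fell without library 8. The 2 added falls were Csnk1e, a kinase that marks PER proteins for breakdown, and Per3. Per3, with its 2 D-boxes, was at 118, 164, 111 and 130.0 CPM at CT8, 91.4, 70.1 and 72.6 CPM in libraries 5 to 7 and 153 CPM in library 8. Library 8 was thus within the CT8 range, and the log2 change of -0.43 ± 0.27 (adjusted p = 0.311) became -0.71 ± 0.24 without it (adjusted p = 0.039). That call was lost again when any of libraries 1, 2, 4, 5, 6 or 7 was also left out. Csnk1e (adjusted p = 0.0294 without library 8) lost its call without library 2, 4, 5 or 7.

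Per1, at 65.9 to 121 CPM at CT8, had 67.7, 73.6, 78.4 and 88.8 CPM in libraries 5 to 8, and the 2 groups overlapped. Cry2, Nr1d2, Ciart and Clock also overlapped and did not pass in either fit. Cry2, a repressor like Cry1, was at 47.4, 52.98, 39.9 and 45.2 CPM at CT8 and 58.9, 51.7, 44.2 and 53.2 CPM at CT16, and its sign (log2 change 0.17 ± 0.14) turned under scaling by library size alone, as did that of Rora, the gene of ROR alpha (log2 change 0.19 ± 0.14 under TMM).

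Among 20 clock outputs of liver, 1 rose (Dbp) and 2 fell (Lonrf3 and Slc45a3) with all libraries, and 4 rose and 2 fell without library 8. Lonrf3, a RING finger gene with an E-box in the searched window, was at 13.7, 16.2, 12.2 and 15.3 CPM at CT8 and 9.15, 3.95, 6.28 and 9.13 CPM at CT16 (log2 change -1.01 ± 0.22, edgeR adjusted p = 0.0352). Slc45a3 had 34.1, 25.2, 23.5 and 24.3 CPM at CT8 and 17.8, 17.4, 14.9 and 17.2 CPM at CT16 (adjusted p = 0.0467). In both genes every CT16 library lay under every CT8 library. Slc45a3 was highest in library 1, and its call without library 8 was lost when library 1, 6 or 7 was also left out. The rises added without library 8 were Pnpla2, the lipase that starts fat breakdown (log2 change 0.62 ± 0.13), Gys2, the liver glycogen synthase (0.59 ± 0.17), and the purine enzyme gene Pnp (0.69 ± 0.20). The calls of Gys2 (without library 5 or 6) and Pnp (without 2, 4, 6 or 7) did not survive those omissions. Tef and Hlf, the relatives of Dbp, did not pass in either fit. The proteins of Nampt and Alas1 make NAD and heme under clock control. Nampt was at 113 to 126 CPM at CT8 and 103, 99.8, 92.1 and 107 CPM at CT16, without overlap but with adjusted p = 0.225. Alas1 had 945, 993, 789 and 910.2 CPM at CT8 and 551, 493, 962 and 542 CPM at CT16, where library 7 stood among the CT8 values.

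Where library 8 lay was then read gene by gene. Its position was set to 0 at the mean of the CT8 libraries and to 1 at the mean of libraries 5 to 7, in log2(CPM + 1), over the 3567 genes called without it. It lay nearer to CT16 in 474 genes (13.3%) and nearer to CT8 in 3093, with a median position of 0.13. In 2118 of these genes (59.4%) it was inside the range of the 4 CT8 libraries. The clock genes went the other way. Of the 13 called clock genes, 9 placed library 8 nearer to CT16, with a median position of 0.56. Among them were Per2 (0.52), Cry1 (0.94), Nr1d1 (0.81), Bhlhe41 (0.92), Dbp (0.85), Lonrf3 (0.54), Slc45a3 (0.94) and Pnp (0.56). Per3, Csnk1e, Gys2 and Pnpla2 placed it nearer to CT8. Secretory pathway genes placed it nearer to CT16 in 6 of 52 cases, plasma protein genes in 1 of 48 and markers of non-parenchymal cells in 0 of 10. In most called clock genes library 8 lay nearer to CT16, with Per2, Lonrf3 and Pnp close to midway. It was set aside because its values resembled CT8. Its place near CT8 in most other called genes therefore restates that choice and is no separate result. What sets library 8 apart was not tested.

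**Figure D2:**
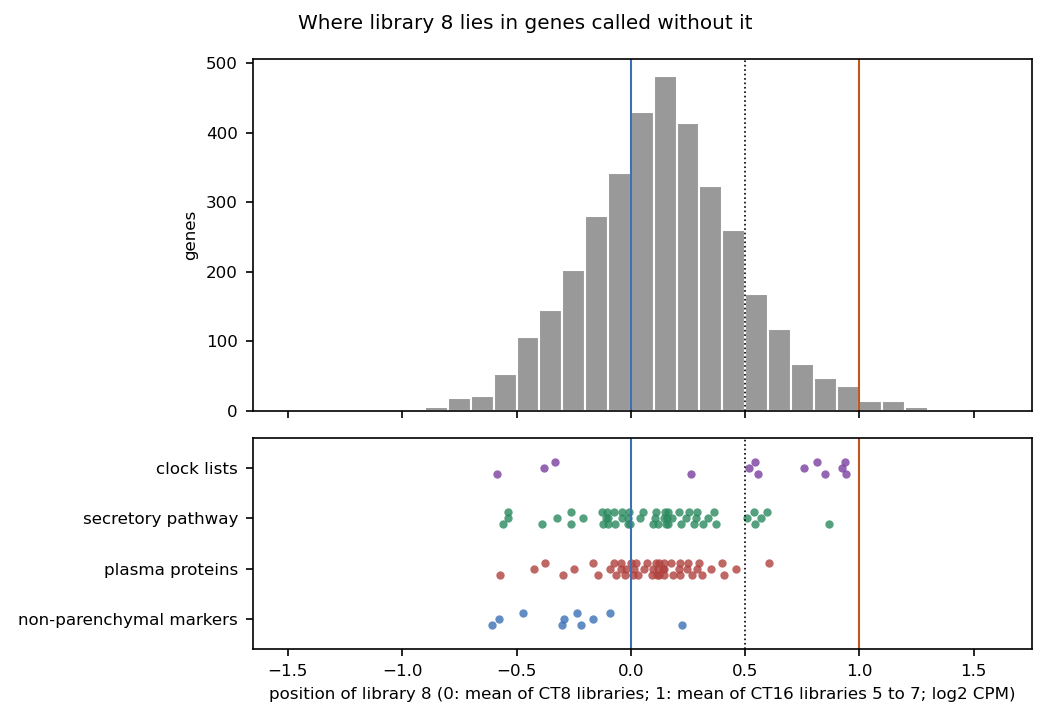
Position of library 8 in the genes called without it, as a histogram over the 3567 genes (top, x axis in units of the distance between the 2 means) and for members of 4 groups of lists (bottom, 1 point per gene). The blue line is the CT8 mean, the orange line is the mean of libraries 5 to 7 and the dotted line is midway. Most genes lie near the blue line with a median of 0.13, while 9 of the 13 clock points lie right of the dotted line.

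Among genes that carry proteins into and through the ER, some rose at CT16 with all libraries and more without library 8, which lay nearer to CT8 in most of those called. Of 30 ER import genes, 6 rose and 0 fell with all libraries, and 18 rose and 1 fell without library 8 (the fall was the small translocon subunit gene Sec61g). The median log2 change of the list was 0.41 with all libraries and 0.54 without library 8, beside -0.04 and -0.02 over all genes. Sec61a1, the channel subunit of the translocon, was at 79.6, 72.8, 68.6 and 67.8 CPM in libraries 1 to 4, 174, 136 and 126 CPM in libraries 5 to 7 and 77.5 CPM in library 8. Libraries 5 to 7 lay above all CT8 libraries and library 8 within them. The log2 change was 0.83 ± 0.21 (edgeR adjusted p = 0.0441) and 1.04 ± 0.17 without library 8 (adjusted p = 0.00183). Stt3a, the catalytic subunit of the oligosaccharyl transferase that glycosylates entering chains, had 52.6, 51.8, 60.2 and 53.7 CPM at CT8, 132, 112 and 93.4 CPM in libraries 5 to 7 and 62.0 CPM in library 8. Its log2 change was 0.87 ± 0.18 (adjusted p = 0.0325). Rpn2, another subunit of that enzyme, changed by 0.67 ± 0.16 (adjusted p = 0.0432). Srp54a, of the signal recognition particle, changed by 1.22 ± 0.30, but near-identical copies can share its reads and its low level of 0.975 to 3.34 CPM is uncertain.

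Of 24 ER chaperone and folding genes, 3 rose with all libraries (Ppib, Pdia6 and Dnajb11) and 14 without library 8, and 0 fell in either. Ppib, the ER cyclophilin that assists proline folding, had the lowest p in the whole comparison. It was at 32.9, 26.4, 21.0 and 18.5 CPM at CT8 and 69.4, 64.4, 57.3 and 55.8 CPM at CT16, with no overlap between the groups and library 8 close to library 7. The log2 change was 1.32 ± 0.19 (edgeR adjusted p = 0.00875), and it was the only gene to pass an adjusted p of 0.01 with all libraries. Its call was lost without library 4 or 5 and held in the other omissions of 1 library. Pdia6, a disulfide isomerase whose ER stress element is shown above, had 155, 149.9, 176 and 172 CPM at CT8, 355, 285 and 307 CPM in libraries 5 to 7 and 201 CPM in library 8 (log2 change 0.82 ± 0.19, adjusted p = 0.0397). Library 8 lay between the groups. Hspa5 encodes BiP, the main ER chaperone, and is given as the best known gene with this element, a choice made after its values were seen. It had 221, 198, 242 and 242 CPM at CT8, 327, 319.6 and 327 CPM in libraries 5 to 7 and 215 CPM in library 8. Libraries 5 to 7 were higher than all CT8 libraries and library 8 was not, so the log2 change was 0.40 ± 0.19 (adjusted p = 0.189) with all libraries and 0.56 ± 0.18 (adjusted p = 0.0345) without it. The latter call was lost when any of libraries 1, 2, 4, 5, 6 or 7 was also left out. Of the 8 genes of this list with an ER stress element, 1 passed with all libraries and 7 without library 8. In the latter fit 58.3% of the whole list and 24.6% of all genes passed. A link between the element and the rises was not tested. Creld2, whose sequence is not shown, passed in neither fit.

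Transport from the ER and glycosylation in the Golgi followed. Of 26 ER to Golgi transport genes, 2 rose with all libraries (the cargo receptor genes Tmed9 and Tmed10) and 13 without library 8, with 0 falls. Tmed9 was at 37.0, 32.4, 29.9 and 29.7 CPM at CT8, 59.1, 61.5 and 64.8 CPM in libraries 5 to 7 and 38.0 CPM in library 8 (log2 change 0.79 ± 0.19, edgeR adjusted p = 0.0413). Surf4, a receptor for secreted proteins, changed by 0.79 ± 0.14 without library 8 and did not pass with it (adjusted p = 0.0539). Of 16 Golgi glycosylation genes, 1 rose with all libraries and 6 without library 8. The one was St6gal1, which adds the terminal sialic acid to plasma glycoproteins, at 39.5, 31.0, 34.97 and 26.6 CPM at CT8 and 101, 74.5, 72.9 and 55.4 CPM at CT16. No library overlapped, library 8 was the lowest of the CT16 group, and the log2 change was 1.20 ± 0.23 (adjusted p = 0.0248). Of 13 genes of the integrated stress response, 0 passed with all libraries (2 at an unadjusted p under 0.05) and 1 without library 8, the transcription factor gene Atf5 (log2 change 1.13 ± 0.32), whose call was lost without library 5 or 6. Proteasome subunits rose in 1 of 31 cases with all libraries, Psmd2 (log2 change 0.62 ± 0.16, adjusted p = 0.0467), and in 10 without library 8. Under scaling by library size alone and without library 8, the list medians were 0.16 for ER import, 0.21 for chaperones, 0.07 for transport, 0.01 for Golgi glycosylation and -0.10 for the proteasome, where the sign turned, beside -0.40 over all genes.

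Transcripts of plasma proteins, which pass through this pathway, were called mostly as rises, and most of those calls came only without library 8. Of 28 acute phase genes, 2 rose with all libraries (Crp and Lbp) and 15 without library 8. Of 34 complement and coagulation genes, 2 (Serpinf2 and Plg) and 20 rose, and 0 fell in either list. Of 24 plasma and lipoprotein genes, 1 rose (Apom) with all libraries, and 13 rose and 1 fell (Apoc2) without library 8. The list medians without library 8 were 0.83, 0.60 and 0.54, and 0.45, 0.22 and 0.16 under library size alone. The shares that rose without library 8 were 53.6, 58.8 and 54.2%. Abundant genes as a whole also rose often in that fit. Of all genes at or above 1000 CPM 45.1% rose, and of those at 100 to 1000 CPM 33.0% did. The part of abundance in these calls was not tested. Summed, the acute phase genes gave 47642 to 66960.1 CPM in the CT8 libraries, 103971 to 121772 in libraries 5 to 7 and 70576 in library 8.

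C3, the central complement protein, was at 8275, 6722, 9289 and 8579 CPM in libraries 1 to 4, 21155, 16602 and 13979 CPM in libraries 5 to 7 and 9066 CPM in library 8. Library 8 lay inside the CT8 range, and the log2 change was 0.89 ± 0.25 with all libraries (edgeR adjusted p = 0.0539) and 1.10 ± 0.22 without it (adjusted p = 0.00337). Plg, which encodes plasminogen, had 1866, 1821, 2218 and 1952 CPM at CT8, 4189, 4483 and 3647 CPM in libraries 5 to 7 and 2128 CPM in library 8 (log2 change 0.88 ± 0.23, adjusted p = 0.0476). Lbp, which binds bacterial lipopolysaccharide, had 95.3, 115, 129.5 and 108 CPM at CT8, 246, 290.2 and 235 CPM in libraries 5 to 7 and 130.0 CPM in library 8 (log2 change 1.01 ± 0.26, adjusted p = 0.0472). In all 3 genes libraries 5 to 7 were above every CT8 library, while library 8 was inside the CT8 range for Plg and level with its upper end for Lbp. Hpx, the heme carrier hemopexin, and Trf, the iron carrier transferrin, changed by 1.08 ± 0.24 and 0.95 ± 0.21 without library 8 and missed the threshold with it (adjusted p = 0.0512 and 0.0581). Apom, the carrier of sphingosine-1-phosphate on lipoproteins, had 133, 105, 140.2 and 111 CPM at CT8 and 212, 252, 181 and 171 CPM at CT16 without overlap (log2 change 0.74 ± 0.15, adjusted p = 0.0275). Apoc2, the cofactor of lipoprotein lipase, was the exception, at 8.10 to 13.2 CPM at CT8, 3.74 to 7.12 CPM in libraries 5 to 7 and 9.03 CPM in library 8. Its fall without library 8 (log2 change -1.15 ± 0.29) was lost without library 5 or 6.

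**Figure D3:**
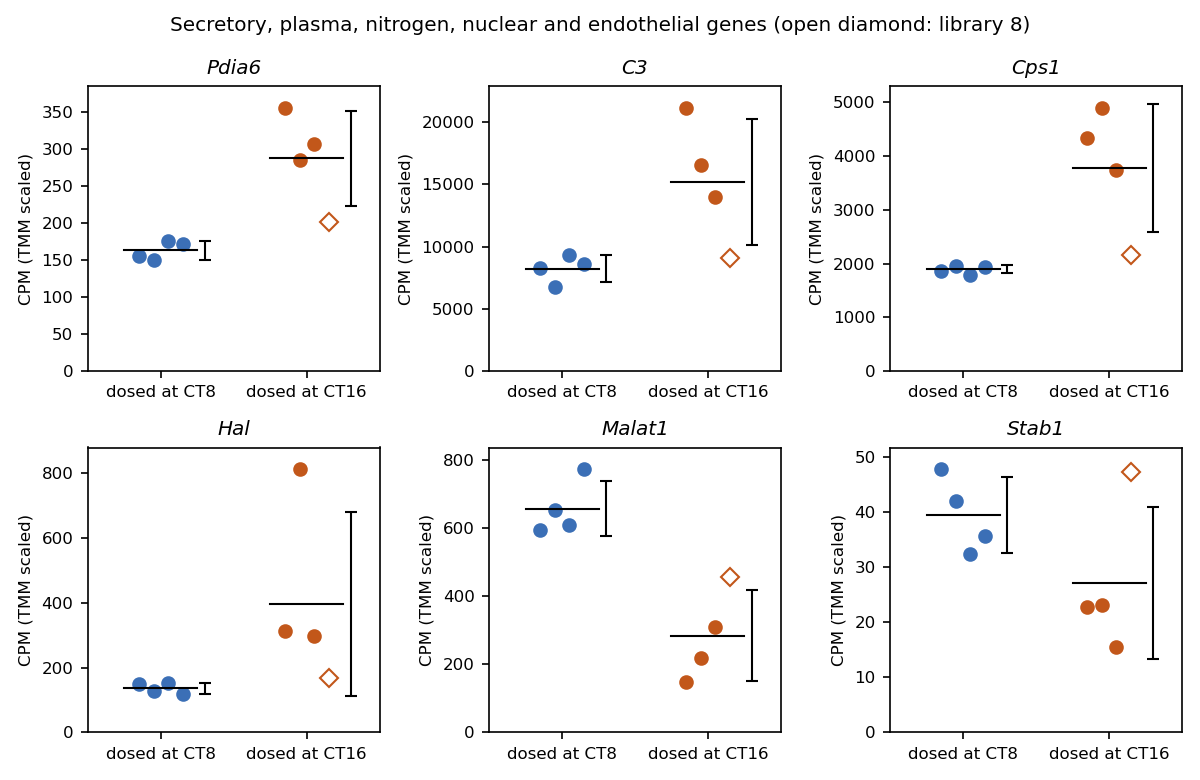
Levels in CPM (TMM scaled) of Pdia6, C3, Cps1, Hal, Malat1 and Stab1 in the CT8 and CT16 libraries, 1 point per library, with the mean of 4 as a line and the SD as a bar. The open diamond is library 8. It lies within or close to the CT8 points in C3, Cps1, Hal and Stab1 and between the groups in Pdia6 and Malat1.

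Nitrogen metabolism had the largest share of calls without library 8 among the lists with at least 10 tested genes. Of 25 urea cycle and amino acid enzymes, 4 rose with all libraries (Agxt, Cbs, Gpt and Cps1) and 17 without library 8, and 0 fell. Their median log2 change was 0.66 with all libraries and 0.80 without library 8, where library size alone gave 0.42. Cps1, the entry enzyme of the urea cycle, was at 1870.0, 1955, 1793 and 1941 CPM in libraries 1 to 4, 4337, 4899 and 3745 CPM in libraries 5 to 7 and 2150.2 CPM in library 8. The CT8 libraries were close together, library 8 lay just above them, and libraries 5 to 7 were 2.35-fold above CT8 in the fit (log2 change 1.001 ± 0.27, edgeR adjusted p = 0.0494, and 1.23 ± 0.25 without library 8). Agxt, which detoxifies glyoxylate, had 139, 130.3, 129 and 99.6 CPM at CT8 and 239, 425, 262 and 167 CPM at CT16 (log2 change 1.14 ± 0.22, adjusted p = 0.0247). Cbs, the first enzyme that turns homocysteine into cysteine, had 263, 266, 242 and 219 CPM at CT8 and 501, 783, 522 and 256 CPM at CT16 (log2 change 1.06 ± 0.25, adjusted p = 0.0423). Library 6 was the highest WT library in all 3 genes.

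Library 6 stood further apart in a set of catabolic genes. Sds, serine dehydratase, was at 175, 234, 134 and 127 CPM at CT8 and at 231, 929, 322 and 225 CPM in libraries 5 to 8. Hal, histidine ammonia lyase, was at 148, 126, 153 and 119 CPM at CT8 and 312, 812, 297 and 169 CPM at CT16. Got1, the cytosolic aspartate transaminase, was at 166, 149.8, 189.9 and 152 CPM at CT8 and 308, 773, 367 and 144 CPM at CT16. Library 6 had over 2 times the level of any other WT library in each. The libraries labelled CryDKO reached 836 CPM for Sds and 526 CPM for Hal (library 10) and 529 CPM for Got1 (library 14). In WT, Sds overlapped between the groups even without library 8. None of the 3 passed with all libraries, with edgeR adjusted p of 0.11, 0.0516 and 0.144, and all passed without library 8 (0.0402, 0.00475 and 0.0377). Hal kept that call in each of the 15 further omissions. Got1 lost it without library 1, 2, 3, 4, 6 or 7, and Sds without 1, 2, 3, 4, 6, 11 or 15. Aldh1b1, a mitochondrial aldehyde dehydrogenase (2.28 ± 0.48), and Cyp17a1, a steroid hydroxylase (2.14 ± 0.49), had the largest log2 rises among the named genes called only without library 8, and both kept their calls in the 15 omissions. Lpl (1.97 ± 0.62), lipoprotein lipase, was at 8.00 to 53.4 CPM in libraries 5 to 7 and lost its call without library 1, 2, 3, 4 or 6. Lcn2, the iron-binding acute phase protein lipocalin 2, had 149, 195, 345 and 398 CPM at CT8 and 762, 821, 932 and 436 CPM at CT16 without overlap (log2 change 1.66 ± 0.48 without library 8, lost without library 1, 2, 5, 6 or 7). Mt1, a metallothionein that binds zinc and copper, had 158, 533, 552 and 411 CPM at CT8 and 865, 1784, 775 and 683 CPM at CT16 (log2 change 1.51 ± 0.42 without library 8, lost without library 6).

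Among genes of sugar handling, more rose than fell without library 8. Of 16 genes of glucose and fructose sensing, 1 rose and 1 fell with all libraries, and 4 rose and 1 fell without library 8. The latter shares were 25% and 6.25%, beside 12.8% and 11.8% of all genes. The list median log2 change was 0.39 with all libraries and 0.53 without library 8, beside -0.04 and -0.02 over all genes. Under library size alone and without library 8 it was 0.15. Slc2a5, the fructose transporter, was at 4.26, 3.43, 5.37 and 4.01 CPM at CT8 and 15.3, 10.6, 10.9 and 5.58 CPM at CT16 (log2 change 1.31 ± 0.26, edgeR adjusted p = 0.0245). Mlxipl, which encodes the glucose-sensing transcription factor ChREBP, went the other way with 643, 890.3, 585 and 713 CPM at CT8 and 266, 204, 307 and 462 CPM at CT16 (log2 change -1.19 ± 0.29, adjusted p = 0.0432). In neither gene did the groups overlap, and library 8 was the CT16 library nearest to CT8 in both. The gluconeogenic enzyme Fbp1 (0.93 ± 0.17) rose without library 8 only. G6pc, which releases glucose, had 418, 74.8, 349 and 176 CPM at CT8 and 108, 86.9, 117 and 16.1 CPM at CT16, overlapping, with adjusted p = 0.122. Of 20 fasting-type genes, 0 passed with all libraries (3 at an unadjusted p under 0.05) and 2 rose without library 8 (Pck1 and Sds). Of 15 glucocorticoid-responsive genes these counts were 0 (4 unadjusted) and 4 (Mt1, Klf9, Pck1 and Fkbp5). Of 17 fatty acid synthesis genes 0 passed in either fit, and 0 had an unadjusted p under 0.05. Thrsp, a regulator of that pathway, had 183, 197, 207 and 286 CPM at CT8 and 118, 44.8, 131 and 112 CPM at CT16 (adjusted p = 0.243). Of 24 cholesterol synthesis genes 0 passed with all libraries (1 unadjusted) and 1 without library 8.

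**Figure D4:**
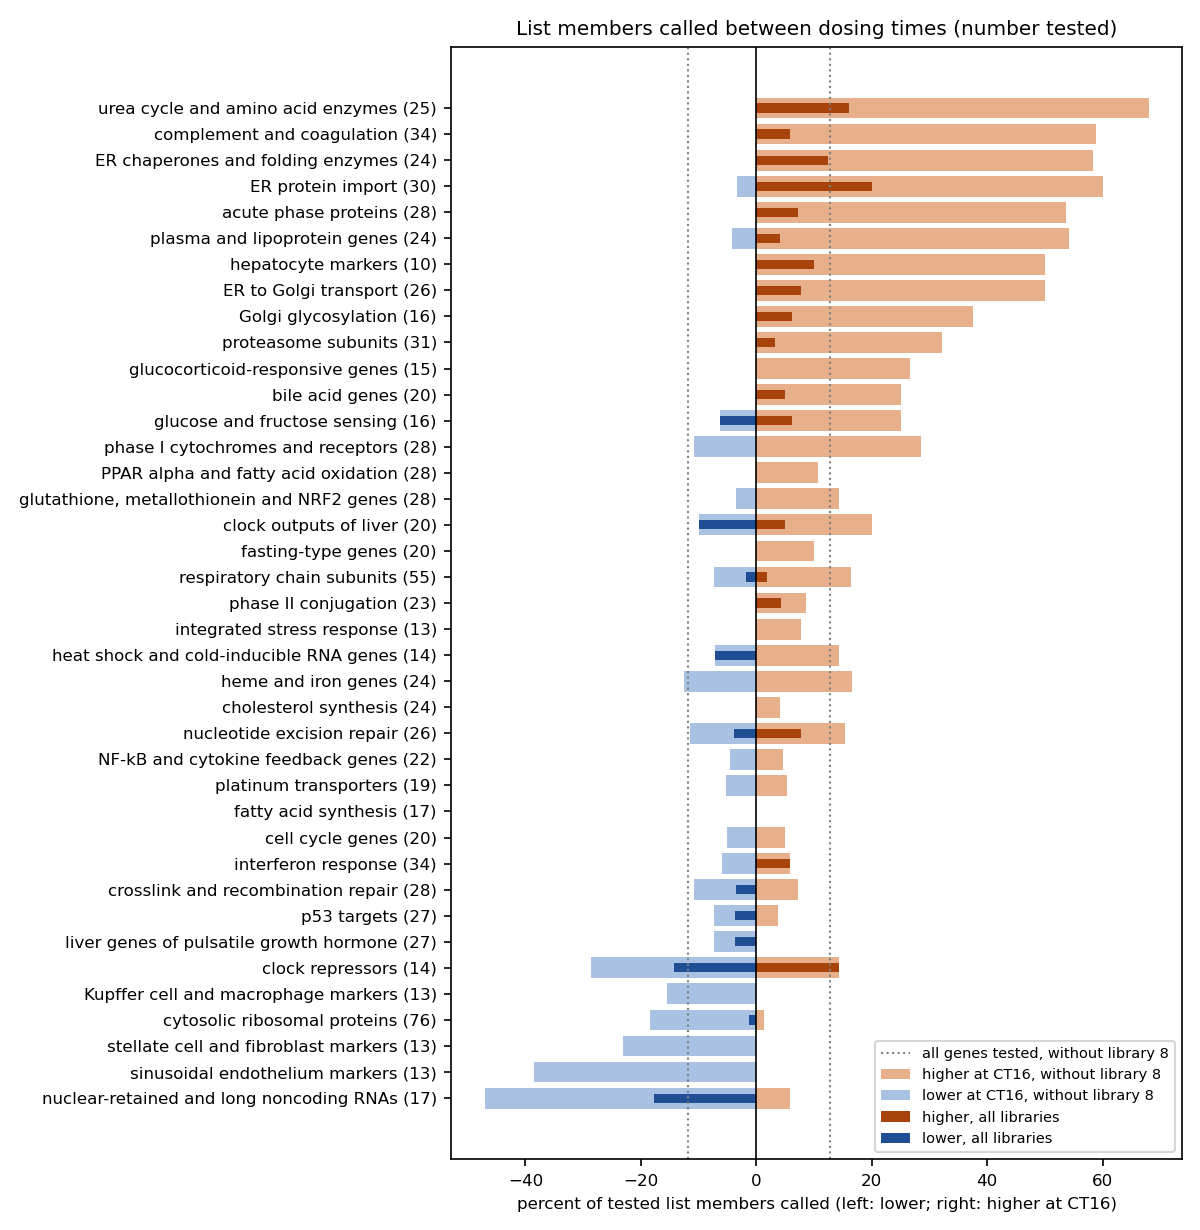
Percent of tested members of each list with at least 10 tested genes that were higher (right) or lower (left) at CT16, without library 8 (pale bars) and with all libraries (dark bars). The dotted lines mark all 14484 genes without library 8, 12.8% higher and 11.8% lower. The urea cycle, secretory, plasma protein and hepatocyte marker lists reach furthest right, and nuclear-retained RNAs and endothelial markers furthest left.

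Among other genes above 32 CPM that passed both with and without library 8, the largest rises included Ctsl, Tm4sf4, Fbxo21 and Camk1d. Ctsl, the lysosomal protease cathepsin L, was at 275, 323, 345 and 317 CPM at CT8 and 632, 1226, 674 and 422 CPM at CT16, with library 6 the highest (log2 change 1.23 ± 0.29, edgeR adjusted p = 0.0413). Tm4sf4, a membrane protein gene, had 77.1, 69.0, 93.8 and 62.0 CPM at CT8 and 139, 243, 140.0 and 122 CPM at CT16 (adjusted p = 0.0385), and Camk1d, a calcium-dependent kinase gene, changed by 1.02 ± 0.23 (adjusted p = 0.0364). Fbxo21, a ubiquitin ligase subunit gene, had 65.1, 57.4, 72.4 and 55.1 CPM at CT8 and 165, 159, 113 and 89.1 CPM at CT16 (log2 change 1.07 ± 0.20). The largest fall was that of Fbf1, a gene of the ciliary base, with 97.7, 105, 36.3 and 28.9 CPM at CT8 and 16.0, 11.6, 17.1 and 14.9 CPM at CT16. Its CT8 libraries fell apart into a high pair, 1 and 2, and a low pair, 3 and 4, and all lay above CT16 (log2 change -2.17 ± 0.44, adjusted p = 0.0364). Other large falls were those of Naa80, the actin acetyltransferase (-0.995 ± 0.20), Zpr1, a zinc finger gene (-0.93 ± 0.21), Fnbp4 (-0.92 ± 0.18) and Als2cl (-0.97 ± 0.17). In library 8, Naa80 lay among libraries 5 to 7 at 46.5 CPM and Zpr1 under them at 80.7 CPM. Of 14 heat shock and cold-inducible genes, 1 fell with all libraries, and 2 rose and 1 fell without library 8. Hsf1, the heat shock transcription factor, fell from 21.5 ± 2.59 to 14.7 ± 0.768 CPM (SD, n = 4; adjusted p = 0.0458), while Hspa1a and Hspa1b did not pass (adjusted p = 0.146 and 0.216).

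Other genes fell only without library 8. Col27a1, a fibrillar collagen gene, was at 79.3, 127, 67.2 and 159 CPM at CT8, 18.8, 6.62 and 22.6 CPM in libraries 5 to 7 and 38.5 CPM in library 8, with the largest log2 change of these (-2.72 ± 0.72), lost without library 5 or 6. Tsku, which encodes the secreted protein tsukushi, had 277, 199, 132 and 233 CPM at CT8, 54.4, 19.2 and 96.7 CPM in libraries 5 to 7 and 108 CPM in library 8. Its log2 change of -1.85 ± 0.54 was lost without library 1, 2, 4, 5 or 6. Library 6 was the lowest WT library in both genes, and library 8 lay under the CT8 libraries in both. Sned1, an extracellular matrix gene, changed by -1.56 ± 0.29 and kept its call in the 15 further omissions, with 26.1 CPM in library 8 against 24.0 to 36.8 CPM at CT8. Lgals4, a galectin gene, changed by -1.62 ± 0.47, lost without library 1, 2, 5 or 6. The pseudogenes Mup-ps16 and Cyp2d37-ps also fell, but near-identical genes can share their reads.

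Some nuclear RNAs fell at CT16. Of 17 tested nuclear-retained and long noncoding RNAs, 3 fell with all libraries (Malat1, Meg3 and Mlxipl, whose messenger RNA is known to be retained in liver nuclei), and 8 fell and 1 rose (Norad) without library 8. The list median was -0.61 with all libraries and -0.84 without library 8. Malat1, an abundant RNA of nuclear speckles, was at 595, 651, 607 and 771 CPM in libraries 1 to 4, 147, 218 and 309.7 CPM in libraries 5 to 7 and 456 CPM in library 8. No CT16 library reached the CT8 range and library 8 lay between the groups (log2 change -1.21 ± 0.29, edgeR adjusted p = 0.0432). Meg3, an imprinted noncoding RNA, had 8.11, 7.92, 3.73 and 5.03 CPM at CT8 and 2.68, 0.971, 1.91 and 2.40 CPM at CT16 (log2 change -1.64 ± 0.36, adjusted p = 0.0344). Kcnq1ot1, the imprinted antisense RNA of the Kcnq1 locus, had 11.7, 18.2, 14.2 and 18.0 CPM at CT8, 1.28, 4.42 and 5.88 CPM in libraries 5 to 7 and 11.3 CPM in library 8 (log2 change -1.96 ± 0.45 without library 8, adjusted p = 0.00849). The strand setting of the counts is not stated in the sources used here, so reads of an antisense RNA and of its partner cannot be told apart. The gene of the large mitochondrial ribosomal RNA, mt-Rnr2, had 4259.6, 4119.7, 4275 and 5676 CPM at CT8 and 1443, 1822, 2027 and 3297 CPM at CT16 (log2 change -1.09 ± 0.27, adjusted p = 0.0441).

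The same pattern ran through gene classes. Of 1371 tested genes that RefSeq calls long noncoding, 0 rose and 37 fell with all libraries, and 7 rose and 337 fell without library 8. Of 12699 protein coding genes, 178 rose and 136 fell with all libraries, and 1846 rose and 1259 fell without library 8. Abundance ran alongside. Without library 8, 9 of 2330 genes under 1 CPM rose and 294 fell, while 55 of 122 genes at or above 1000 CPM rose and 2 fell. Under library size alone the balance of all calls was far toward falls, as given above, so the rises of classes are relative to TMM. The share of reads in the top 100 genes and the number of genes with a read moved with this pattern (43.4 to 45.7% in libraries 5 to 7 against 35.7 to 39.3% at CT8), and their part in it was not tested.

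**Figure D5:**
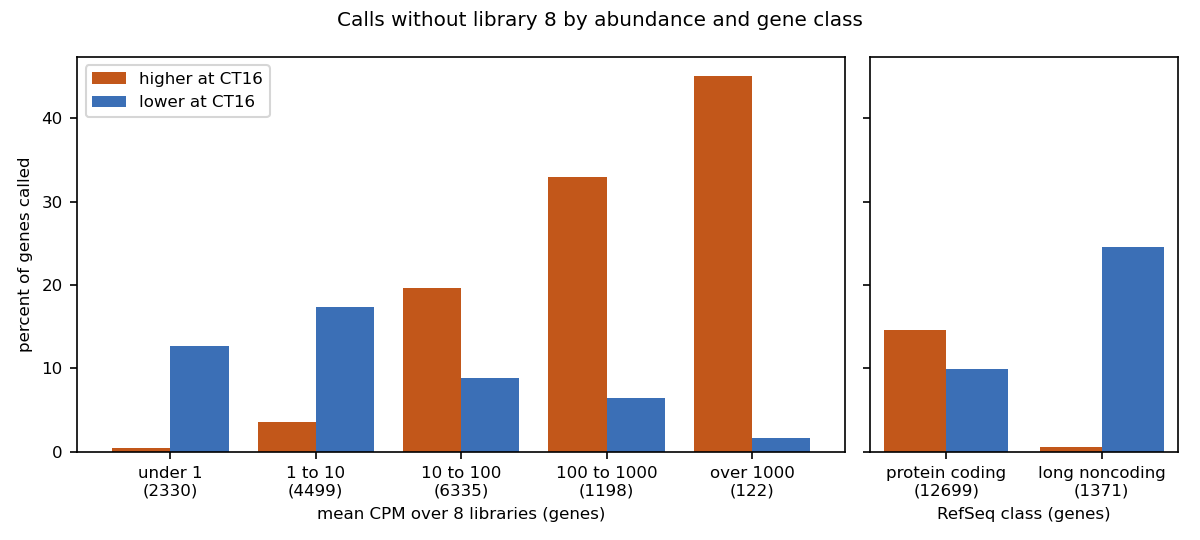
Percent of tested genes called higher or lower at CT16 without library 8, by mean CPM over the 8 WT libraries (left) and by RefSeq gene class (right), with the number of genes under each pair of bars. Rises go from 9 of 2330 genes under 1 CPM to 55 of 122 at or above 1000 CPM, and long noncoding genes have 337 falls beside 7 rises.

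Calls differed among classes of transcript length, with no steady trend, in coding genes of at least 10 CPM, of which 98.7% had a length in the GRCm38 annotation. Of 396 such genes under 1000 bases, 20 rose and 33 fell without library 8, whereas 370 of 1491 genes of 1000 to 2000 bases rose and 76 fell. Of 2918 genes of 2000 to 4000 bases 808 rose and 202 fell, and of 2608 longer genes 474 rose and 261 fell. Some small protein subunits were among the falls. Of 76 cytosolic ribosomal protein genes, 1 fell (Rps24) with all libraries, and 1 rose (Rpl23) and 14 fell without library 8. The latter shares were 1.32% higher and 18.4% lower, beside 12.8% and 11.8% of all genes. Rps24, of the small subunit, was at 411, 359, 537 and 627 CPM at CT8, 147, 224 and 185 CPM in libraries 5 to 7 and 402 CPM in library 8 (log2 change -1.01 ± 0.25, edgeR adjusted p = 0.0441), and ribosomal protein genes have processed copies that may share reads. Of 55 respiratory chain subunits, 1 rose (Ndufa9) and 1 fell (Cox7b) with all libraries, and 9 rose and 4 fell without library 8. The latter shares, 16.4% and 7.27%, were near those of all genes, with falls below that share. Ndufa9, of complex I, had 62.0, 51.4, 58.5 and 50.2 CPM at CT8 and 84.5, 100.2, 96.2 and 72.5 CPM at CT16 (log2 change 0.67 ± 0.14, adjusted p = 0.0275). Cox7b, of complex IV, had 249, 225, 262 and 298 CPM at CT8, 97.8, 148 and 123 CPM in libraries 5 to 7 and 228 CPM in library 8 (log2 change -0.80 ± 0.20, adjusted p = 0.0441). The part of transcript length or RNA quality in these directions was not tested.

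Endothelial and stellate cell markers were lower in libraries 5 to 7 and not in library 8. With all libraries 0 of 13 Kupffer cell, 0 of 13 endothelial and 0 of 13 stellate cell markers passed (1, 4 and 1 at an unadjusted p under 0.05), and without library 8 2, 5 and 3 fell and 0 rose. The shares that fell without library 8 were 15.4, 38.5 and 23.1%, beside 11.8% of all genes and 17.3% of genes of 1 to 10 CPM. The Kupffer share was thus near that of all genes. Each of these markers had reads. The endothelial markers summed to 153 to 217 CPM in the CT8 libraries, 77.8 to 128 in libraries 5 to 7 and 198 in library 8, the stellate markers to 148 to 188 CPM in the CT8 libraries, 88.5 to 121 in libraries 5 to 7 and 212 in library 8 and the Kupffer markers to 106 to 138 CPM in the CT8 libraries, 80.7 to 127 in libraries 5 to 7 and 180.2 in library 8. The endothelial and stellate sums of libraries 5 to 7 lay under every CT8 library, and the Kupffer sums overlapped. Library 8 was above every CT8 library in the stellate and Kupffer sums and within them in the endothelial one. Stab1, a scavenger receptor of sinusoidal endothelium, was at 47.7, 41.9, 32.3 and 35.6 CPM at CT8, 22.8, 23.0 and 15.5 CPM in libraries 5 to 7 and 47.1 CPM in library 8 (log2 change -0.54 ± 0.24, edgeR adjusted p = 0.162, and -0.91 ± 0.17, adjusted p = 0.00226, without library 8). Hgf, the hepatocyte growth factor made by stellate cells, had 15.8, 10.4, 9.56 and 10.6 CPM at CT8, 6.31, 4.10 and 3.67 CPM in libraries 5 to 7 and 17.0 CPM in library 8. Its fall without library 8 (log2 change -1.28 ± 0.37) was lost without library 1, 6 or 7. Vsig4, a complement receptor of Kupffer cells, had 3.02 to 5.75 CPM at CT8, 0.881 to 2.47 CPM in libraries 5 to 7 and 6.24 CPM in library 8, and fell only without library 8 (lost without library 2, 6 or 7). Mpeg1, a gene of macrophages in the same list, went the other way, with 24.1 to 29.5 CPM at CT8 and 51.6, 65.6, 42.1 and 37.6 CPM at CT16, and did not pass (adjusted p = 0.0534 without library 8). In bulk tissue fewer cells of a type and less RNA per cell cannot be told apart. Neutrophil markers summed to 2.22 to 8.04 CPM in the CT8 libraries, 1.28 to 2.48 in libraries 5 to 7 and 4.36 in library 8, T and NK cell markers to 0.252 to 1.65 CPM in the CT8 libraries, 0.288 to 0.453 in libraries 5 to 7 and 0.906 in library 8, and of 10 pancreas and fat markers 7 had no read in any WT library. Without library 8, 1 of 5 neutrophil markers (Csf3r) and 1 of 2 tested T and NK cell markers (Il2rb) fell. In either fit 0 of 7 cholangiocyte, 0 of 3 B and plasma cell, 0 of 2 erythroid and 0 of 2 pancreas and fat markers passed. Hepatocyte markers rose in 1 of 10 cases with all libraries and in 5 without library 8. Their part in the other results was not tested.

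Genes that respond to or repair platinum damage were called in both directions, at shares to be read beside 2.53% of all genes with all libraries and 24.6% without library 8. Of 27 p53 targets, 0 rose and 1 fell with all libraries (Ddb2), and 1 rose (Xpc) and 2 fell (Ddb2 and Mdm2) without library 8. Of 26 nucleotide excision repair genes, 2 rose (Ddb1 and Rpa1) and 1 fell (Ddb2) with all libraries, and 4 rose and 3 fell without library 8. Ddb2, the subunit that finds the lesion, was at 5.51, 7.39, 5.28 and 6.30 CPM at CT8 and 1.53, 2.91, 2.68 and 4.46 CPM at CT16 (log2 change -1.08 ± 0.27, edgeR adjusted p = 0.0441). Its partner Ddb1 had 135, 101, 114 and 105 CPM at CT8, 224, 175 and 176 CPM in libraries 5 to 7 and 123 CPM in library 8 (log2 change 0.62 ± 0.16, adjusted p = 0.0455). The 2 subunits of 1 complex thus differed in direction, and library 8 overlapped CT8 in Ddb1. Mdm2, the ligase that limits p53, had 92.7, 78.4, 78.0 and 96.3 CPM at CT8 and 45.6, 45.5, 56.0 and 77.0 CPM at CT16 and passed without library 8 only (log2 change -0.78 ± 0.19). Cdkn1a, the p53 target p21, was at 44.1, 23.6, 37.4 and 48.4 CPM at CT8 and 18.8, 34.8, 31.8 and 33.4 CPM at CT16, overlapping, with adjusted p = 0.55.

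Of 28 crosslink and recombination repair genes, 0 rose and 1 fell with all libraries, the nuclease scaffold gene Slx4, at 8.11, 7.76, 4.82 and 6.94 CPM at CT8 and 3.09, 2.26, 4.37 and 3.94 CPM at CT16 (log2 change -1.02 ± 0.25, edgeR adjusted p = 0.0441). Without library 8, 2 rose (Brca1 and Mad2l2) and 3 fell (Rev1, Slx4 and Mus81). Rev1, of translesion synthesis, had 25.8, 29.0, 18.7 and 29.0 CPM at CT8, 14.7, 12.1 and 14.4 CPM in libraries 5 to 7 and 28.1 CPM in library 8, which lay within CT8. Of 19 platinum transporters, 0 passed with all libraries (3 unadjusted), and 1 rose and 1 fell without library 8. Slc31a1, the copper transporter CTR1 that also takes up platinum drugs, had 158, 146, 170.1 and 151 CPM at CT8 and 273, 199, 224 and 174 CPM at CT16 (log2 change 0.48 ± 0.15, adjusted p = 0.073, and 0.60 ± 0.15, adjusted p = 0.0103, without library 8, lost without library 5). Abcc5, an export pump, had 8.96, 9.50, 7.09 and 7.65 CPM at CT8, 3.30, 4.67 and 3.01 CPM in libraries 5 to 7 and 7.77 CPM in library 8 (log2 change -1.14 ± 0.25 without library 8). The copper pump gene Atp7b overlapped between the groups (adjusted p = 0.161). Brca1, of recombination repair, was at 3.16, 2.94, 2.73 and 3.11 CPM at CT8 and 5.77, 5.61, 4.55 and 4.67 CPM at CT16 without overlap and rose without library 8 (log2 change 0.86 ± 0.25, lost without library 2, 5 or 6). Of 20 cell cycle genes, 0 passed with all libraries (2 unadjusted), and 1 rose (Pcna) and 1 fell (Ccna2) without library 8.

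Drug handling genes were counted in the same way. Of 28 phase I cytochromes and receptors, 0 passed with all libraries (9 at an unadjusted p under 0.05), and 8 rose and 3 fell without library 8. Nr1i2, the xenobiotic receptor PXR, was at 126, 145, 117 and 122 CPM at CT8 and 93.9, 104, 85.2 and 97.0 CPM at CT16 without overlap and fell without library 8 (log2 change -0.40 ± 0.13, edgeR adjusted p = 0.0375, lost without library 1, 2, 4, 5 or 7). Its partner Rxra had 397, 319.7, 325 and 299.8 CPM at CT8 and 598, 500.4, 524 and 383 CPM at CT16 (adjusted p = 0.0581, and 0.00527 without library 8), with library 8 inside CT8. Of 23 phase II genes, 1 rose with all libraries and 2 without library 8. The first was Ugt1a9, which shares exons with the other Ugt1a genes and is uncertain. Of 28 glutathione, metallothionein and NRF2 genes, 0 passed with all libraries (7 unadjusted), and 4 rose and 1 fell without library 8. The fall was Nfe2l2, which encodes NRF2, at 131, 141, 143 and 148 CPM at CT8 and 90.7, 78.7, 105 and 102 CPM at CT16 (log2 change -0.58 ± 0.18 without library 8, lost without library 2, 4, 5 or 6). Keap1, whose protein restrains NRF2, rose without library 8 (log2 change 0.64 ± 0.12). Of 20 bile acid genes, 1 rose with all libraries, the FGF receptor partner Klb (log2 change 0.80 ± 0.20, adjusted p = 0.0443), and 5 without library 8. Of 28 genes of PPAR alpha and fatty acid oxidation, 0 passed with all libraries (4 unadjusted) and 3 rose without library 8, Acadvl among them (log2 change 0.61 ± 0.16). Of 24 heme and iron genes, 0 passed with all libraries (7 unadjusted), and 4 rose and 3 fell without library 8. Slc40a1, the iron exporter ferroportin, was at 78.2, 80.7, 71.3 and 73.8 CPM at CT8 and 147, 119, 95.6 and 94.6 CPM at CT16 without overlap and rose without library 8 (log2 change 0.70 ± 0.20, lost without library 4, 5 or 6). Of 27 liver genes of pulsatile growth hormone, 1 fell with all libraries, the signal transducer gene Stat5a (log2 change -0.66 ± 0.17, adjusted p = 0.0467), and 2 without library 8. Of 22 NF-kB and cytokine feedback genes, 0 passed with all libraries (4 unadjusted), and 1 rose (Stat3) and 1 fell (Bcl6) without library 8. Of 34 interferon genes, 2 rose with all libraries, Oasl1 (0.59 ± 0.15) and Ifih1 (0.49 ± 0.13), and 2 rose and 2 fell without library 8.

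The libraries labelled CryDKO gave the same contrast in the other genotype. Cry1 lay at 20.5 to 29.0 CPM in these 8 libraries against 5.14 to 15.9 CPM in WT, and Cry2 at 23.1 to 33.2 CPM against 39.9 to 58.9 CPM. Reads over a whole gene do not show the deleted part, and Cry1 went against a loss of transcript, so the directions below rest on the labels. Between CT16 and CT8, 0 of 14484 genes (0.00%) passed in the libraries labelled CryDKO by edgeR, 938 had an unadjusted p under 0.05, and DESeq2 called 14. The clock genes that split in WT overlapped there, with log2 changes of 0.08 ± 0.29 for Nr1d1, 0.29 ± 0.18 for Dbp, 0.32 ± 0.24 for Bhlhe41, -0.30 ± 0.22 for Per2 and 0.09 ± 0.17 for Cry1. List medians were 0.06 for ER import, 0.00 for acute phase proteins, 0.23 for complement and coagulation and -0.09 for the urea cycle and amino acid enzymes. Among other lists the medians were 0.28 for bile acid genes, 0.23 for phase I genes, 0.86 for genes of pulsatile growth hormone, -0.31 for endothelial markers and -0.70 for stellate cell markers. No member of these lists passed there.

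The difference between the genotypes was tested as an interaction. With all libraries 6 genes passed (0.0414%), 4 with a higher and 2 with a lower change in the libraries labelled CryDKO, and 576 (3.98%) without library 8. For these 5 clock genes the adjusted p of the interaction was 0.251 for Nr1d1, 0.27 for Dbp, 0.217 for Bhlhe41, 0.276 for Per2 and 0.103 for Cry1, so their change was not shown to differ between the genotypes. Without library 8, Cry1 (0.0309) passed and the other 4 did not. Ppib did differ. It rose in WT and was at 42.0, 56.5, 79.3 and 51.0 CPM at CT8 and 46.3, 46.6, 41.5 and 39.4 CPM at CT16 in the libraries labelled CryDKO, with an interaction of -1.72 ± 0.26 on the log2 scale (adjusted p = 0.026). Cyp2j9, a cytochrome gene chosen after its values were seen, was at 23.4, 36.2, 19.6 and 31.2 CPM at CT8 and 7.71, 11.5, 10.9 and 17.2 CPM at CT16 in WT. It was at 6.01, 12.2, 7.96 and 7.38 CPM and 12.3, 14.8, 17.9 and 14.8 CPM in the libraries labelled CryDKO (interaction 2.05 ± 0.35, adjusted p = 0.0399). Sult5a1, a sulfotransferase gene, was at 9.33, 5.32, 4.19 and 4.43 CPM and 4.29, 1.47, 4.81 and 4.15 CPM in WT and at 0.610, 0.494, 0.553 and 0.347 CPM and 2.11, 3.05, 2.11 and 2.82 CPM in the libraries labelled CryDKO (adjusted p = 0.0399). Tnfaip3, which encodes the NF-kB inhibitor A20, was higher at CT16 in all 4 WT libraries than in any at CT8 (1.80 to 2.44 CPM against 4.04, 4.10, 2.497 and 3.55 CPM). That difference in WT did not pass in either fit (edgeR adjusted p = 0.12, and 0.0742 without library 8). In the libraries labelled CryDKO, Tnfaip3 was at 10.7, 5.43, 4.48 and 6.29 CPM at CT8 and 2.29, 2.21, 2.28 and 3.23 CPM at CT16 (interaction adjusted p = 0.0399). The remaining 2 genes have model names only. The count of 6 became 0 without library 2, 4, 5, 12 or 13, 1 without library 9, 2 without library 1 or 6, and 3 without library 10.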

How the data were processed

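Liver poly(A) RNA was sequenced as paired 150-base reads in 16 libraries, 4 per genotype and dosing time. The authors deposited counts per gene symbol for 40840 genes. Per the submitters' processing notes, reads passed FastQC, Trimmomatic 0.35, STAR 2.5.3 (GRCm39) and HTSeq 1.99.2. The annotation and strand setting are not given in the sources used here. A second deposited table holds counts that the authors divided by a size factor per library (a signal, 19592 genes), used here in 1 alternative only. Column numbers run over the series and match no replicate number of the labels, so columns were assigned to groups only.

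Genes with enough reads (filterByExpr, 14484) were fitted with edgeR 4.0.16 (R 4.3.3) on the counts as deposited, with TMM scaling, 1 coefficient per group over all 16 libraries and the robust quasi-likelihood test, two-sided. Benjamini-Hochberg adjustment ran over all genes tested, and 0.05 was the threshold for the adjusted p. The comparison was repeated on the same genes without library 8. The code was tested on simulated data. Depth was 21083769 to 29934138 reads per WT library, and intervals cover the spread between libraries. SE is the standard error of a log2 change, and n is 4 per group, or 3 at CT16 without library 8.

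The 46 gene lists and the members were chosen with earlier results of these data known. Genes named were all tested clock genes, the 10 largest rises and falls called with and without library 8 (mean of at least 32 CPM), the 10 largest of each called only without it (at least 10 CPM) and, per list, at most the 4 tested genes of lowest p. Not every gene meeting the rule is given, and results on some genes are not reported here. Hspa5, Cyp2j9 and the list members named without values were chosen after their values were seen. Alternatives were other scalings, filters, tests (DESeq2 1.42.0, limma 3.58.1), samples and thresholds. Promoters came from RefSeq GRCm38.p6.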

Additional observations from a re-analysis of the deposited data

Results flagged for a closer look

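In 268 groups of 4 libraries (134 named genes at each dosing time), 21 values stood apart from the other libraries of their group by a gap above Dixon's critical value. Chance would give this in about 1 in 20 groups if genes were taken without regard to their values. The named genes were partly chosen from these same values, and the groups are not independent. That rate is therefore no measure for them. Library 6 was the highest CT16 library in Tm4sf4 (243 CPM), Cyp17a1 (42.6), Sds (929), its relative Sdsl (51.2), Lpl (53.4) and Mt1 (1784). Library 8 was the highest CT16 library in Als2cl (43.5 CPM), Ccdc57 (10.2), Rev1 (28.1) and the endothelial marker Clec4g (14.6), and the lowest in Hspa5 (215), Acadvl (360.1) and Srp54a (1.74). Library 5 was the highest CT16 library in Bhlhe41 (8.62 CPM) and Nfil3 (31.6), and library 7 in Alas1 (962). At CT8, library 1 was the highest in Slc45a3 (34.1 CPM), the endothelial marker Egfl7 (25.5) and Hgf (15.8) and the lowest in Tnfaip3 (1.80). Library 4 was the highest at CT8 in mt-Rnr2 (5676 CPM).

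The change between dosing times differed between WT and the libraries labelled CryDKO, by the interaction term of edgeR with all libraries, in Ppib (adjusted p = 0.026), Sult5a1 (0.0399), Tnfaip3 (0.0399) and Cyp2j9 (0.0399), whose levels are given above.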

How the results depend on the processing

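With all libraries the count of 367 genes became 663 without a filter on low counts, 697 with only the WT libraries in the fit, 1526 with DESeq2, 955 with limma voom, 158 with limma on the deposited normalized values and 1 at an adjusted p of 0.01. It was 286 to 377 with DESeq2 size factors, library size alone, a mean of at least 50 reads or no robust option. Leaving out 1 library gave 0 to 3567. Without library 8 the count of 3567 was 1126 at an adjusted p of 0.01 and 2569 to 5089 under the other settings, and leaving out 1 more library gave 1808 to 4008. The interaction count of 6 became 0 with library size alone, 30 without a filter, 1 with a mean of at least 50 reads, 134 with DESeq2, 1 with limma voom, 3 with limma on the normalized values and 0 at an adjusted p of 0.01. Leaving out 1 library gave 0 to 576 (1414 to 1891 genes at an unadjusted p under 0.05 where it was 0). Of the log2 changes of the 134 named genes over all settings, 2 turned, those of Cry2 (-0.0868) and Rora (-0.0869) under library size alone, 2710 kept direction and side of the threshold, 224 gained the call and 547 lost it. The cause was not tested. No paired analysis was possible because the column numbers run from 1 to 16 and are not the replicate numbers of the labels.

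Limits are the 4 libraries per group, the dependence of calls on single libraries, a spread shared with the libraries labelled CryDKO, the missing collection time and the lack of untreated mice in what was analysed. Library 8 was set aside for its values, so counts without it are conditional on that choice. Genes near 1 CPM rest on few reads per library, and differences there were often not detectable at this depth.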
